A study of Mus musculus with 7 samples.

Results

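Occupancy of Tip60 and of Hdac6 was compared at the same promoters of control mouse embryonic stem cells (ESCs), in 2 of the 7 ChIP-seq libraries of the series. All 36733 rows of the deposited tables, each the surroundings of 1 transcription start site (TSS), entered the comparison, and they cover 17689 gene symbols. For each library the mean coverage from −500 to 500 bp was divided by that library's own mean over all rows at 1500 to 2000 bp on either side of the TSS. This mean is called the flank level here, and promoter values are given as multiples of it, because a read covered 299 bp in the Tip60 table and 149 bp in the Hdac6 table and the values in ppm could not be set side by side. The contrast of a row is log2((Tip60 + 0.5)/(Hdac6 + 0.5)), so that positive values stand for relatively more Tip60 and negative values for relatively more Hdac6.

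Tip60 (gene Kat5) is a lysine acetyltransferase that acts together with the chromatin remodeler p400 (gene Ep400) in the Tip60-p400 complex, which in ESCs holds down differentiation genes and is needed for ESC identity. Hdac6 belongs to the class II histone deacetylases. In most differentiated cells it is cytoplasmic and removes acetyl groups from α-tubulin, whereas in ESCs part of it is nuclear and is found with Tip60-p400. Whether each promoter carries Tip60 and Hdac6 in the same proportion is the question that the comparison addresses.

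Both libraries were made with the Flag antibody from E14 ESCs in which the endogenous protein carries the H3F tag, Tip60-H3F in one line and Hdac6-H3F in the other, 72 hr after infection with a lentivirus for a knockdown of GFP (GFP KD), which served as the control. The other libraries are Tip60 upon Hdac6 KD, Hdac6 upon Tip60 KD, p400 (antibody to the endogenous protein) in GFP KD as well as Hdac6 KD cells, and Flag ChIP of E14 ESCs without a tag. The library titled as Hdac6 ChIP upon Tip60 KD carries a genotype label that names Hdac6 KD, and it was used here by its title. Each condition has 1 library, so no spread between cultures can be given, no test was run, and a difference between the proteins cannot be told apart from a difference between 2 lines or 2 libraries. The deposited steps correspond to 21339400 normalizing reads for Tip60 and 11586200 for Hdac6, and the median promoter window held 12 and 10 reads. Intervals on single promoters are exact 95% Clopper-Pearson intervals of the read ratio, which cover counting error only since duplicate reads were kept.

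Among the promoters with the largest excess of Tip60 are those of aminoacyl-tRNA synthetases, and several of them hold an 8-base element, TGATGCAA, that is the known core of the amino acid response element bound by ATF4. The element was searched after the values had been seen. The lines give the bases from 180 upstream to 19 downstream of the TSS of 5 synthetase genes with the element in that window, 5′ to 3′ along the gene (mm9), with the element or its reverse complement in capitals.
Yars (mm9 chr4:128867015-128867214, plus strand): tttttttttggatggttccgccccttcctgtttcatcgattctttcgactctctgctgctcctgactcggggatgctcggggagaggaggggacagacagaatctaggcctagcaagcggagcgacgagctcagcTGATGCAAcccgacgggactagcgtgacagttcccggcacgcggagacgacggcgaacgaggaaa
Iars (mm9 chr13:49777333-49777532, plus strand): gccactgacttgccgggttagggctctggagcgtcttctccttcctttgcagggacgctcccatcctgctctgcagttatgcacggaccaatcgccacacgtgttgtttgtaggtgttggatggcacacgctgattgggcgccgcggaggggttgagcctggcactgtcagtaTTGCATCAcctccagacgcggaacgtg
Tars (mm9 chr15:11329394-11329593, minus strand): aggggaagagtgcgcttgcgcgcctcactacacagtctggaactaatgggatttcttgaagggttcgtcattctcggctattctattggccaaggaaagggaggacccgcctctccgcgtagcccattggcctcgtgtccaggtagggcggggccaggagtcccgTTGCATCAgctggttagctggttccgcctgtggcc
Mars (mm9 chr10:126748676-126748875, minus strand): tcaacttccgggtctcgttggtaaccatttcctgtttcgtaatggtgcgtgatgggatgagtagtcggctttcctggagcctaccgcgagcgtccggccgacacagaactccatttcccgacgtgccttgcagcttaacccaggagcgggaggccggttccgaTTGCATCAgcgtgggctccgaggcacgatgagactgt
Cars (mm9 chr7:150785928-150786127, minus strand): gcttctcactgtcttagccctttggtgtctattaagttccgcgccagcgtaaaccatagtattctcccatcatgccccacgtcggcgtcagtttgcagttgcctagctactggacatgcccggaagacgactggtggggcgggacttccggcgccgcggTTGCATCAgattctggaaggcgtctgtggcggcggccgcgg
For comparison, the same stretch is shown for Rpl30, the ribosomal protein gene furthest toward Tip60, and for Glis1, Pou3f1 and Gpr27, among the genes furthest toward Hdac6, now with each CpG in capitals because base composition separates these promoters.
Rpl30 (mm9 chr15:34372958-34373157, minus strand): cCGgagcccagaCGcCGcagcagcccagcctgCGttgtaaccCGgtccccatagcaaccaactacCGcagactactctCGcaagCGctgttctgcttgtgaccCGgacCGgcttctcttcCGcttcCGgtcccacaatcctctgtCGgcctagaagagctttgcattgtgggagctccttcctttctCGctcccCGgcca
Glis1 (mm9 chr4:107107144-107107343, plus strand): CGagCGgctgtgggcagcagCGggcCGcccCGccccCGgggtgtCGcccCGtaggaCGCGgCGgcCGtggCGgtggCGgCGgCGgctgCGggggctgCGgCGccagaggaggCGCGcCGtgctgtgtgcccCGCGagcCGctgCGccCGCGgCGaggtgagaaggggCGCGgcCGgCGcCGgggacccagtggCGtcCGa
Pou3f1 (mm9 chr4:124334709-124334908, plus strand): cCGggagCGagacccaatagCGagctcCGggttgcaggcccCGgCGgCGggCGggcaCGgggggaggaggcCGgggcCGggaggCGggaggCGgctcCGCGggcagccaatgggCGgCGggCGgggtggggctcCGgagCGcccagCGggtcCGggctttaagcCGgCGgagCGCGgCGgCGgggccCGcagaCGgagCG
Gpr27 (mm9 chr6:99642493-99642692, plus strand): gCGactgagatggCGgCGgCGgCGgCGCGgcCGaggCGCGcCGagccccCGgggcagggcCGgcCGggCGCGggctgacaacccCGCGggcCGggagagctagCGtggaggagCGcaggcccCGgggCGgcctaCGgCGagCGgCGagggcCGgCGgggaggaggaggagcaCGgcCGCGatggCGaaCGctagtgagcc
Within these 200 bases Rpl30 has 15 CpG and a GC content of 62.0%, Glis1 has 36 and 83.5%, Pou3f1 has 31 and 82.0%, and Gpr27 has 34 and 81.5%.

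Over all rows the median promoter value was 1.10 times flank for Tip60 (quartiles 0.75 and 1.54), 1.46 for Hdac6 (0.79 and 2.25) and 0.977 for the untagged cells. The contrast had a median of −0.22 (quartiles −0.67 and 0.22) and ran from −2.78 to 2.47. It was positive in 36.0% of rows and negative in 62.3%. A row was called relatively more Tip60 when the contrast reached 1, which is 2-fold, with Tip60 at 2 times flank or more, and relatively more Hdac6 by the mirror rule. Relatively more Tip60 was found in 236 rows (0.642% of the rows tested, 153 gene symbols) and relatively more Hdac6 in 3427 rows (9.33%, 2297 gene symbols). With the further demand of 1.5 times the untagged value, 194 rows (0.528%) and 3317 rows (9.03%) remained. Another group, high in both, had both values at 2 times flank or more and a contrast inside 2-fold, and held 2477 rows (6.74%). The balance of the calls depended on base composition: with each value divided by what its library showed in flank windows of equal GC content, 1005 rows were called toward Tip60 and 197 toward Hdac6, and the median contrast of all rows became 0.13.

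**Figure D1:**
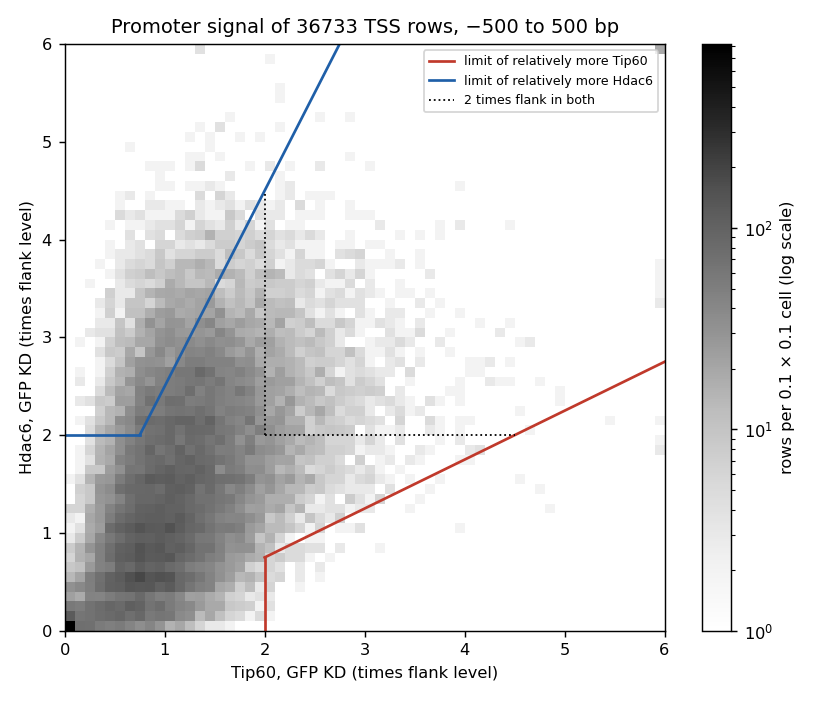
Number of rows (grey, log scale) by Tip60 and Hdac6 promoter value upon GFP KD, both in multiples of the flank level. The red line bounds the 236 rows with relatively more Tip60, the blue line the 3427 rows with relatively more Hdac6 and the dotted lines the 2477 rows high in both. The 62 rows with a value of 6 or more are drawn at the edge.

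Yars, which encodes the tyrosyl-tRNA synthetase, had the most Tip60 reads of the genes furthest toward Tip60 (TSS at position 128867195 of chromosome 4, plus strand). Tip60 reached 9.91 times flank there and Hdac6 1.87, from 107 and 13 reads, while the untagged cells had 1.56. The read ratio was 5.32 in favour of Tip60 (95% interval 2.98 to 10.3). Iars, the isoleucyl-tRNA synthetase gene (chromosome 13, position 49777513), had 8.79 times flank for Tip60 and 1.95 for Hdac6, from 95 and 14 reads, a ratio of 4.39 (2.49 to 8.33). Its untagged value, 2.07, was slightly above its Hdac6 value. Tars, for threonine, had 8.09 and 2.22 (87 and 15 reads, ratio 3.75, interval 2.15 to 6.99), with an untagged value of 2.06. Lars, for leucine, had 6.30 and 1.31 (68 and 9 reads, ratio 4.89, interval 2.43 to 11.1), with an untagged value of 1.64. Hdac6 was thus a little above the untagged value at Yars and Tars and below it at Iars and Lars, whereas Tip60 was several times above it at all 4 promoters. They are 4 of the 12 genes with the largest contrasts toward Tip60.

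The synthetase genes as a class leaned toward Tip60 in part of their cytosolic members. Of 20 cytosolic synthetase genes, 6 were called relatively more Tip60 (Yars, Iars, Lars, Tars, Mars and Aars), none relatively more Hdac6 and 9 high in both, where the shares over all rows were 0.642%, 9.33% and 6.74%. The 12 genes for mitochondrial synthetases (symbols ending in 2) had 0 calls toward Tip60, 1 toward Hdac6 (Fars2, contrast −1.23) and 3 high in both, beside the same shares. Median Tip60 was 3.39 times flank in the cytosolic and 2.13 in the mitochondrial genes, whereas median Hdac6 was 2.32 and 2.24. The median contrast, however, was similar, 0.11 in the cytosolic and 0.05 in the mitochondrial genes. After division by flank windows of equal GC content it was 0.92 and 0.81. Median GC content was similar, 55.7% and 57.0%. The split by compartment was made after the values had been seen. Contrasts of the cytosolic genes ran from 2.14 at Yars to −0.55 at Sars, and not every member leaned toward Tip60. Gars, Eprs and Kars were among those high in both, with contrasts of −0.06, −0.02 and −0.25.

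The element TGATGCAA or its reverse complement lay within −250 to +49 bp of the TSS in 7 of the 32 synthetase genes, namely Yars, Iars, Tars, Mars, Aars, Nars and Cars. All 7 had a positive contrast, from 0.27 at Cars to 2.14 at Yars, with a median of 1.45, against a median of −0.16 in the 25 cytosolic and mitochondrial synthetase genes without it. Median Tip60 was 5.32 times flank with the element and 2.14 without, and median Hdac6 was 1.95 and 2.47. Lars had no match and a contrast of 1.91, so the match and the contrast did not run together throughout. Among all 36733 promoters 0.784% held a match, among the rows with relatively more Tip60 4.24%, among those with relatively more Hdac6 0.175% and among those high in both 0.686%. The 4.24% stands for 10 rows. They include Yars, Iars, Tars, Mars and Aars, so the share in large part recounts the synthetase genes described above. A match of letters does not show that a factor was bound.

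p400 was measured upon GFP KD with another antibody, in a library that the calls did not use. It was high where Tip60 was high among the synthetases: 7.51 times flank at Yars, 6.17 at Iars, 4.95 at Lars, 4.35 at Mars, 4.83 at Aars and 4.04 at Tars, against a median of 1.54 over all rows with p400 values. Yars was at the 99.96 percentile of p400, Iars at 99.9, Lars at 99.6 and Tars at 98.8. Tip60 upon Hdac6 KD was lower at each of these promoters, 2.90 at Yars, 1.68 at Iars, 2.47 at Lars, 2.41 at Mars, 2.04 at Aars and 1.06 at Tars. The contrast of the knockdown libraries, Tip60 upon Hdac6 KD against Hdac6 by the library titled Tip60 KD, was accordingly small, with 0.10 at Yars, 0.35 at Iars, 0.93 at Lars and −0.54 at Tars. None of these 4 contrasts passed 2-fold, and the treatments of that pair differ. The promoters had been named for high Tip60 upon GFP KD, so lower values in another library cannot be told apart from that choice.

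**Figure D2:**
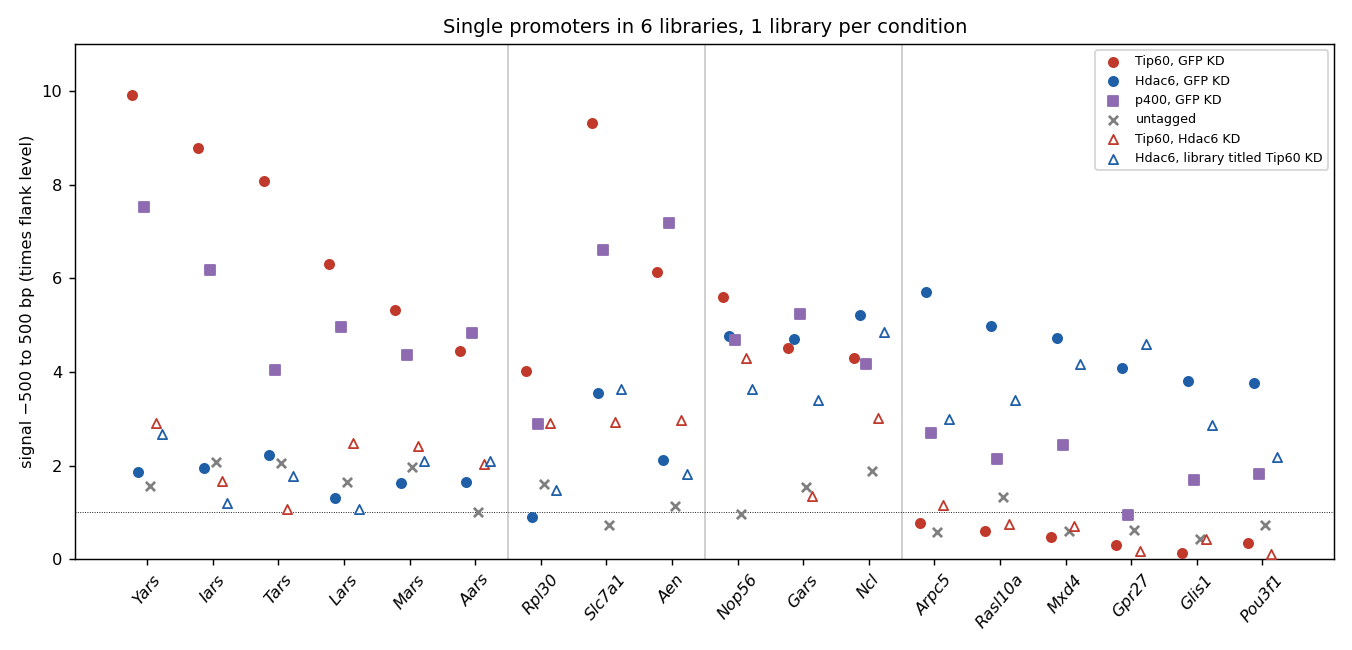
Promoter value (−500 to 500 bp, in multiples of the flank level) of 18 genes in 6 libraries, 1 point per library. From left to right, separated by grey lines, stand 6 aminoacyl-tRNA synthetase genes, 3 other genes toward Tip60, 3 genes high in both and 6 genes toward Hdac6. Tip60 (filled red) and p400 (purple) lie above Hdac6 (filled blue) at all 6 synthetase genes, and at the 6 genes on the right Hdac6 lies above all other libraries except the second Hdac6 library (open blue).

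Amino acid supply genes outside the synthetases were examined with a list of 38 rows put together after values had been seen, so its median is only a description. Slc7a1, the transporter of cationic amino acids, had 9.31 times flank for Tip60 and 3.55 for Hdac6 (101 and 25 reads, contrast 1.28), with 0.73 in untagged cells and 6.59 for p400. Asns, the asparagine synthetase gene, had 4.38 and 1.71 (47 and 12 reads, contrast 1.14). These are the 2 calls toward Tip60 in the list, with 2 toward Hdac6 (5.26%) and 19 high in both, where all rows had 0.642%, 9.33% and 6.74%. At Psat1, an enzyme of serine synthesis, both were high, with Tip60 at 8.33 and Hdac6 at 4.87 (contrast 0.72), and at Xpot, the exporter of tRNA from the nucleus, they were 7.16 and 3.53 (contrast 0.93). The far end toward Hdac6 was Cebpb, a leucine zipper factor, with 0.66 and 3.24 (7 and 23 reads, contrast −1.69). The list's median contrast was 0.17.

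Genes for cytosolic ribosomal proteins leaned toward Tip60 more evenly. Among 98 rows, 10 were called relatively more Tip60, 0 relatively more Hdac6 and 52 high in both, beside 0.642%, 9.33% and 6.74% of all rows. A positive contrast was found in 66 of them, beside 36.0% of all rows. Their median Tip60 was 2.96 times flank and median Hdac6 2.29, with 1.41 in untagged cells and 3.23 for p400. The median contrast was 0.28, against −0.22 over all rows. Rpl30, a protein of the large subunit, had Tip60 at 4.02 and Hdac6 at 0.91 (43 and 6 reads, ratio 4.64, interval 1.96 to 13.3), the largest contrast of the list. Rps19, a small-subunit gene with more reads, had 7.56 and 3.49 (82 and 24 reads, contrast 1.02), so Hdac6 too was well above the untagged value of 1.22 there. The other end of the list was Rpl29, with 1.46 and 3.04 (16 and 21 reads). The mitochondrial ribosomal protein genes (77 rows) had 3 calls toward Tip60 (0.642% of all rows) and 6 toward Hdac6, a share of 7.79% beside 9.33% of all rows, and a median contrast of −0.10.

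Other genes with a large contrast toward Tip60 had fewer reads. At Ugt3a2, a glycosyltransferase gene, Tip60 had 25 reads (2.27 times flank) and Hdac6 0, which with a floor of 3 reads for Hdac6 makes Tip60 at least 5.39-fold higher, while the exact interval of the read ratio began at 4.07. Cr1l, a complement regulator, had 31 and 1 reads (2.89 and 0.13 times flank, ratio 20.0, interval 3.34 to 817). Nras, the small GTPase, had 26 and 1 reads (2.39 and 0.15, ratio 16.8, interval 2.76 to 689). Ccdc77 had 35 and 5 reads, the protocadherin Pcdhga8 37 and 5, the splicing regulator Rbm4 47 and 7, and the cytokine gene Il17f 26 and 3. The knockdown libraries gave contrasts of −0.21 at Ugt3a2, 0.14 at Cr1l, 0.66 at Nras, 0.42 at Ccdc77, 0.03 at Pcdhga8, −0.25 at Rbm4 and −0.27 at Il17f, all inside 2-fold. Hdac6 in the library titled Tip60 KD was 1.48 times flank at Ugt3a2, 1.40 at Cr1l and 1.55 at Nras. The genes had been chosen by GFP KD values, so these shifts cannot be told apart from that choice. p400 at these genes ranged widely: it was 3.95 times flank at Rbm4 and only 0.77 at Ugt3a2 and 0.90 at Il17f, below the median over all rows. In the list of p53 targets (22 rows) both calls toward Tip60 were rows of Aen, and 2 rows were called toward Hdac6 and 6 high in both, beside 0.642%, 9.33% and 6.74% of all rows. This gene, which encodes a nuclease induced by p53, had Tip60 at 6.13 and Hdac6 at 2.12 (66 and 15 reads, contrast 1.34) and p400 at 7.18, while Bbc3, a pro-apoptotic target, had 1.82 and 5.32 (20 and 37 reads, contrast −1.33).

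Toward Hdac6 the genes named here had promoters with a GC content from 65.3% at Rasl10a to 82.4% at Ranbp9, and transcription factors were among them. Glis1, a zinc finger transcription factor (chromosome 4, position 107107324), had 27 Hdac6 reads and 1 Tip60 read, or 3.81 and 0.13 times flank, a ratio of Hdac6 over Tip60 of 41.7 (interval 6.88 to 1709). Gpr27, an orphan receptor, had 29 and 3 reads (4.08 and 0.30, ratio 14.9, interval 4.63 to 76.7). Mxd4, a partner of Max, had 33 and 5 reads (4.72 and 0.47), and Arpc5, a subunit of the Arp2/3 actin nucleator, 40 and 8 (5.70 and 0.77, ratio 7.73, interval 3.57 to 19.1). The neural POU factor Pou3f1 had 26 and 4 reads and the pancreatic factor Ptf1a 25 and 3. Mmp24, Jazf1, Shoc2, Ranbp9 and Rasl10a complete these genes, with contrasts from −2.60 to −2.31. At all of these genes the Tip60 value was at most 0.774 times flank, below the mean level of Tip60 far from the TSS. The untagged value was also below its flank level at all of them but Rasl10a (1.33), from 0.19 at Ranbp9 to 0.90 at Mmp24. A low Tip60 value was part of how these genes were chosen. In them the second Hdac6 library gave between 2.18 and 4.60 times flank, and the knockdown pair had contrasts from −2.92 to −1.08. All of them thus leaned the same way in libraries that the rule did not use. Such a lean was common at their GC content. Over the highest quintile of GC content, from 61.6%, the medians were 2.62 for that Hdac6 library and −1.07 for the knockdown pair.

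The GC content of the promoters followed the contrast closely. In the lowest quintile of GC content, up to 44.6%, the median contrast was 0.30, and in the highest quintile, from 61.6%, it was −0.73. Median Hdac6 rose over these quintiles from 0.50 to 2.49 times flank, while median Tip60 went from 0.79 to 1.39 in the fourth and 1.26 in the highest quintile. The median GC content was 50.6% in rows with relatively more Tip60, 63.6% in rows with relatively more Hdac6, 59.6% in rows high in both and 52.9% over all rows. The same dependence was present far from promoters. In flank windows with no other listed TSS within 1000 bp, the ratio of Tip60 to Hdac6 fell from 3.12 in 5134 windows under 35% GC to 0.992 between 45 and 47.5% and to 0.411 in 189 windows over 65%. Mean Hdac6 in these windows rose from 0.262 to 2.56 times flank, close to the mean of promoters in the same bins, 0.299 and 2.63. Mean Tip60 in flank windows stayed between 0.816 and 1.16, and that of the untagged cells between 0.814 and 1.07. For Tip60, promoters exceeded flank windows of equal GC content in every bin from 47.5% GC upward, with 1.53 against 1.09 between 57.5 and 60%, but not in most bins of lower GC content, with 0.817 against 0.966 between 40 and 42.5%. For Hdac6 the promoter and flank values were 2.19 and 2.09 between 57.5 and 60%, and 0.606 and 0.709 between 40 and 42.5%.

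**Figure D3:**
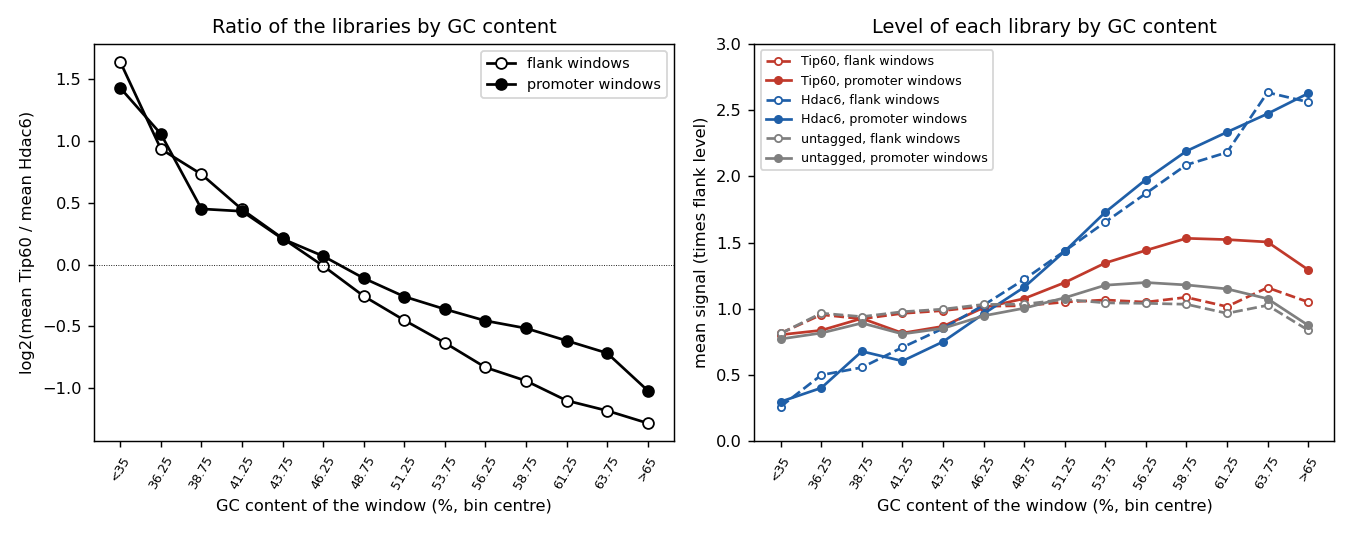
Left, log2 of mean Tip60 over mean Hdac6 by GC content of the window, for promoter windows (filled) and flank windows at 1500 to 2000 bp from the TSS (open). Right, mean value of Tip60, Hdac6 and untagged cells in the same windows, in multiples of the flank level. The ratio falls with GC content at promoters and in flanks alike, and only Hdac6 rises steeply in both.

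Calls in the 2 directions fared differently once values were divided by the flank level of the same GC content. From 45% GC upward the flank ratio of Tip60 to Hdac6 was below 1, so the division tends to move rows there toward Tip60. The lower quartile of GC content was 46.4% in rows with more Tip60 and 58.0% in rows with more Hdac6. The direction of the changes was thus largely set by the division. Of the 236 rows with relatively more Tip60, 204 (86.4%) kept the call, and all 236 kept a positive contrast, with a median of 1.52. Yars then had a contrast of 2.92, Iars 2.26, Tars 2.14, Lars 2.08, Rpl30 2.17 and Slc7a1 2.18. Of the 3427 rows with relatively more Hdac6, 62 (1.81%) kept the call and 218 (6.36%) were still past 2-fold, whereas 3387 (98.8%) kept a negative contrast, with a median of −0.42. The call also asks for Hdac6 at 2 or more, which 242 of these rows still had after the division. The genes described as furthest toward Hdac6 all stayed past 2-fold, from −1.67 at Glis1 to −1.14 at Arpc5, whereas Cebpb had −0.65, Fars2 −0.28 and Bbc3 −0.21. Of these, Arpc5 also kept Hdac6 at 2 times the flank level of its GC content, with 2.23, and the others did not. Bins over 62.5% GC rest on 155 and 189 flank windows. The origin of the GC dependence of the Hdac6 library was not tested.

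Among genes with a contrast between -0.5 and 0.5, a limit that leaves out Psat1, the 8 with the highest values in both proteins were led by 5830415F09Rik (Tip60 7.49 and Hdac6 5.22 times flank, 81 and 36 reads). Nop56, a component of box C/D small nucleolar particles, had 5.60 and 4.76, Ncl (nucleolin) 4.30 and 5.22, the RNA-binding protein gene Pcbp1 4.59 and 5.16, and the translation factor gene Eif5 5.36 and 4.16. Gars, the glycyl-tRNA synthetase gene, had 4.50 and 4.70, Arhgdia 4.69 and 4.70, and Akt1s1, a substrate of Akt, 4.28 and 5.01. After GC scaling all 8 contrasts were positive, from 0.75 at Akt1s1 to 1.40 at Eif5, and 5830415F09Rik, Nop56, Arhgdia and Eif5 passed 2-fold toward Tip60. At their GC content, 54.7% to 71.6%, the scaling itself tends to move contrasts toward Tip60. Over all rows the median became 0.13, with 1005 rows called toward Tip60. p400 was between 2.73 and 6.01 times flank at the 8 genes, and the untagged value between 0.85 and 2.07.

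The profiles of the 3 groups differed in level and in part in shape. The rows were chosen by mean Tip60 and Hdac6 over the promoter window, so the shape of these curves is not independent of that choice. The promoter window holds all of the downstream window used below but only part of the upstream one. How far the choice made the dips, maxima and ratios of Tip60 and Hdac6 in the groups was not tested. In rows with relatively more Tip60 the averaged Tip60 profile, smoothed over 100 bp, had its maximum of 4.15 times flank at 100 bp downstream of the TSS. Its mean from −100 to 300 bp was 3.89, and from −600 to −200 bp 2.77, a ratio of 1.40 (counting interval 1.34 to 1.47). The downstream window was the higher one in 154 of the 236 rows. Hdac6 in these rows was 1.27 and 0.99 in the same windows and within 1000 bp of the TSS it was highest at −780 bp, with 1.78. Its largest value downstream was 1.42 at 60 bp, and the profile of these few rows was uneven, with a narrow peak further upstream. The untagged profile of the same rows was also highest upstream, with 1.65 at −840 bp. In the 194 rows with Tip60 at 1.5 times untagged or more, the Hdac6 maximum lay at 60 bp, with 1.54, and its downstream to upstream ratio was 1.44. The p400 profile, from the 160 rows with p400 values, had its maximum of 3.75 at 40 bp. In rows with relatively more Hdac6, the Hdac6 maximum of 3.63 also lay at 100 bp, with a downstream to upstream ratio of 1.36 (1.33 to 1.38). Over all rows the Hdac6 maximum lay at 100 bp as well, with a ratio of 1.35. Tip60 in the rows with relatively more Hdac6 was lowest at the TSS. It fell to a minimum of 0.84 at −40 bp between maxima of 1.36 at −760 bp and 1.26 at 800 bp, and the untagged profile had the same form, with a minimum of 0.89 at 0 bp and maxima of 1.24 at −760 bp and 1.20 at 800 bp. In rows high in both, Tip60 had its maximum of 3.12 at 140 bp and a downstream to upstream ratio of 1.19. Hdac6 had 3.94 at 80 bp and 1.54, so that it was the more skewed one. The same held over all rows, with 1.35 for Hdac6 and 1.03 for Tip60. The GC content of the downstream window was higher than that of the upstream window in every group, by a median of 8.73 points in rows with more Tip60, 10.5 points with more Hdac6 and 11.7 points in rows high in both. Its part in the skew was not tested, and the longer reads of the Tip60 table smooth that profile more.

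**Figure D4:**
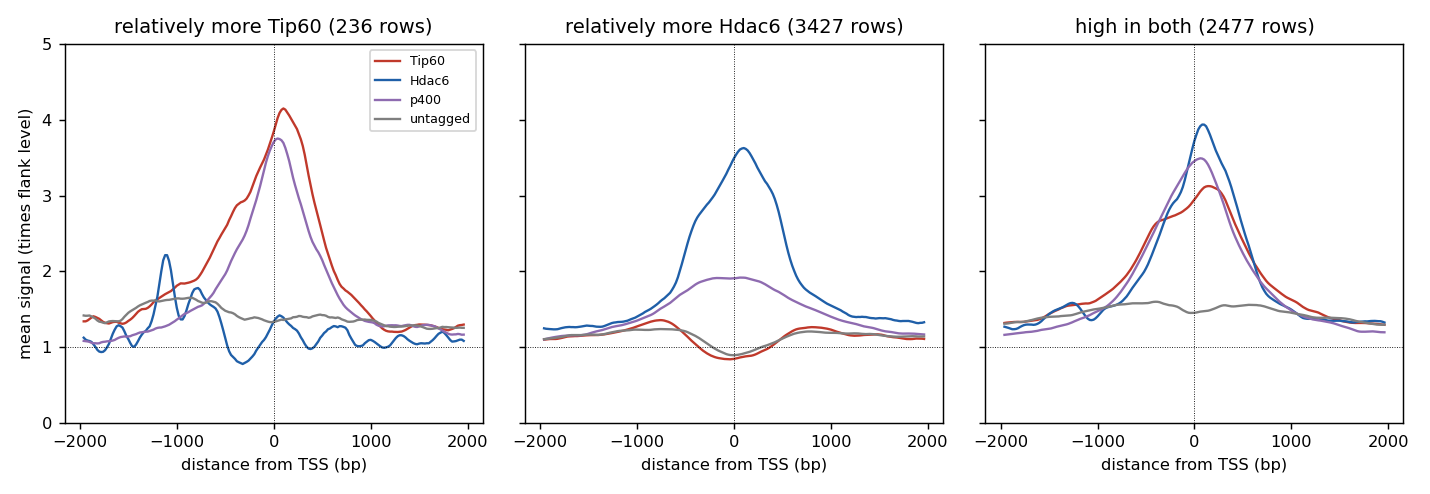
Averaged profiles of Tip60, Hdac6, p400 (each upon GFP KD) and untagged cells by distance from the TSS, smoothed over 100 bp and in multiples of the flank level, in rows with relatively more Tip60, relatively more Hdac6 and high in both. The Tip60 and Hdac6 curves were used to choose the rows of each group, by their mean over the promoter window. Their shape is therefore not independent of that choice. The p400 and untagged curves were not used. Tip60 dips at the TSS together with the untagged cells in the middle panel.

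Among the 7 gene lists with averaged profiles, the skew of Tip60 was largest at translation genes. In the 98 ribosomal protein rows the Tip60 downstream to upstream ratio was 2.03 (1.87 to 2.21) and that of Hdac6 1.88 (1.68 to 2.11). In the 33 synthetase rows the ratios were 1.95 and 1.67. At the 90 rows of dispersed developmental homeobox and paired genes, Tip60 was flat, with 0.99 downstream and 0.97 upstream, and Hdac6 was 2.05 and 1.57 with its maximum of 2.34 at 440 bp. The 43 rows of the Hox clusters had a similar form, with an Hdac6 maximum of 2.31 at 400 bp and Tip60 near its flank level on both sides.

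Of the 36 gene lists, 34 matched rows, and their medians ran from −0.79 to 0.50. Lowest were the dispersed developmental homeobox and paired genes, −0.79, with 23 of 90 rows called toward Hdac6 (25.6%, beside 9.33% of all rows) and 0 toward Tip60. The Hox clusters had −0.69 (8 of 43 toward Hdac6), histone deacetylase family genes −0.63 (6 of 28), forkhead, Sox and T-box genes −0.59 (20 of 93) and Wnt ligands, receptors and inhibitors −0.58 (16 of 52). Median GC content of these lists, with the homeobox genes, ran from 57.2% to 62.4%. In the fourth and highest quintiles of GC content, 11.6% and 28.0% of rows were called toward Hdac6. Examples from these lists were Irx2, an Iroquois factor, with 0.27 for Tip60 and 2.77 for Hdac6, and the ligand gene Wnt6 with 0.43 and 3.43. Highest were vomeronasal and taste receptor genes, 0.50, followed by the ribosomal protein genes, 0.28, and olfactory receptor genes, 0.25. In both receptor lists the 2 proteins were below their flank level: Tip60 was 0.71 and Hdac6 0.52 over 1089 olfactory receptor rows, with 0.67 in untagged cells. The median GC content was 39.3% for olfactory receptors and 37.3% for vomeronasal and taste receptors. After division by the flank level of the same GC content, medians moved to −0.08 for olfactory receptors, 0.06 for the vomeronasal and taste receptors, −0.06 for the homeobox genes and −0.11 for the Hox clusters. Histone deacetylase genes had 0.03, forkhead, Sox and T-box genes 0.06 and Wnt genes 0.10. In the homeobox, Hox, deacetylase, forkhead and Wnt lists 0 rows were then called toward Hdac6, beside 197 of all 36733 rows. Other lists lay further toward Tip60. Ribosomal protein genes had 0.86, synthetases 0.84, the amino acid list 0.80, p53 targets 0.78 and translation factors 0.54, beside 0.13 for all rows.

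**Figure D5:**
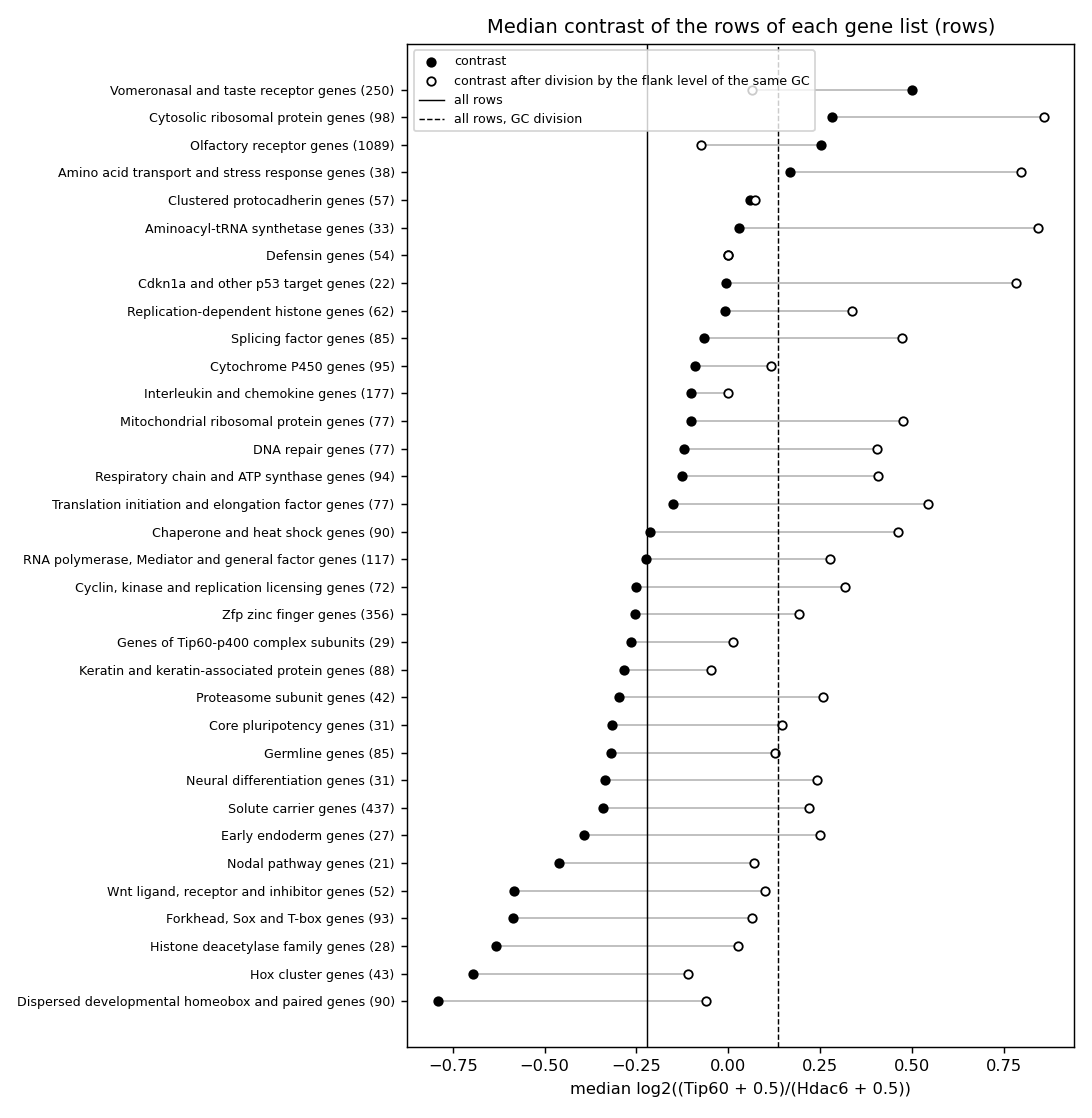
Median contrast of the rows of each gene list upon GFP KD, with the number of rows in brackets, as measured (filled) and after division by what each library showed in flank windows of equal GC content (open). Vertical lines mark the medians over all rows, −0.22 (solid) and 0.13 (dashed). Receptor gene lists move left and most other lists move right, and ribosomal protein, synthetase, amino acid and p53 target genes lie furthest right among the open circles.

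In the libraries that the calls did not use, the groups differed from the rows as a whole. Rows with relatively more Tip60 had a median p400 of 2.53 times flank upon GFP KD, against 2.77 in rows high in both, 1.81 in rows with relatively more Hdac6 and 1.54 over all rows. Their untagged median was 1.35, similar to the 1.36 of rows high in both, above the 0.977 over all rows and far below their Tip60 median of 2.75. Tip60 upon Hdac6 KD had a median of 1.86 in them, and Hdac6 in the library titled Tip60 KD 1.53, compared with 0.87 upon GFP KD. Over all rows Tip60 was 1.10 upon GFP KD and 0.98 upon Hdac6 KD. Hdac6 was 1.46 upon GFP KD and 1.48 in the library titled Tip60 KD. The rows with relatively more Tip60 were chosen by their GFP KD values, so their shifts in other libraries cannot be told apart from that choice. The contrast of the knockdown pair was positive in 64.8% of these rows (32.9% of all rows), and in 9.32% it passed 2-fold toward Tip60 (4.98% of all rows). In rows with relatively more Hdac6 the knockdown pair had a median contrast of −1.13 and passed 2-fold toward Hdac6 in 57.1%, against 20.6% of all rows. Over the highest quintile of GC content that median was −1.07. Of the 62 rows toward Hdac6 that kept the call after GC scaling, 48 had a negative contrast in the knockdown pair (77.4%, against 65.3% of all rows). A second TSS of the opposite strand lay within 1000 bp in 18.6% of rows with more Tip60, 12.2% with more Hdac6, 24.7% high in both and 9.14% of all rows, and at such promoters the signal of neighbouring genes cannot be told apart.

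Short sequence elements in −250 to +49 bp, on either strand, were not spread evenly over the groups. The YY1 element AAGATGGCG was present in 8.47% of rows with relatively more Tip60, 1.93% with relatively more Hdac6, 5.41% high in both and 1.72% of all promoters. An ETS element (CCGGAAG) was found in 16.5%, 10.7%, 23.9% and 9.29% in the same order, and the E-box CACGTG in 14.4%, 8.55%, 14.9% and 6.99%. The GC box GGGCGG was present in 33.1% of rows with more Tip60, 68.6% with more Hdac6, 63.8% high in both and 37.4% of all promoters. A TATA box (TATAAA) was in 11.4% with more Tip60 and 4.67% with more Hdac6, against 12.8% of all promoters. These shares were not corrected for the GC content of the windows.

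Genes that the study followed by ChIP-qPCR or as examples mostly lay inside 2-fold. Rps9 had 2.94 times flank for Tip60 and 2.29 for Hdac6 (contrast 0.30), Rpl27a 2.61 and 2.74 (−0.06) and Cdkn1a, the cell cycle inhibitor, 3.33 and 3.04 (0.11). The differentiation genes Gata4, Nodal and Nefl leaned toward Hdac6, with contrasts of −0.64, −0.37 and −0.91. Their Tip60 values, 0.93, 2.14 and 1.04, were slightly below the untagged values of 0.95, 2.22 and 1.10. Of these genes, only Nefl had a read ratio whose interval excluded 1 (Hdac6 over Tip60 2.39, interval 1.06 to 5.64), and its contrast after GC scaling was −0.17. Gata4 and Nodal changed direction with GC scaling, to 0.13 and 0.51. Zfp37 had −0.40, Dkk1 −0.27 and Speer2 −0.03, the last with 9 and 6 reads. At Zfp37 Tip60 (1.40) and Hdac6 (2.00) were both below the untagged value of 2.06. Tip60 at Dkk1, 0.67, was also below its untagged value, 0.74. The genes of the proteins themselves all leaned toward Hdac6: Kat5 had 1.11 and 2.64, Hdac6 0.79 and 1.73, and Ep400 1.16 and 4.24 (13 and 30 reads, Hdac6 over Tip60 3.57, interval 1.81 to 7.45). Untagged values there were 1.13, 0.81 and 0.92, so Tip60 was above untagged only at Ep400. None of the 12 genes in this set reached 2-fold in either direction after GC scaling, where their contrasts ran from −0.42 to 0.86.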

How the data were processed

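Chromatin immunoprecipitation was sequenced in 7 libraries of mouse ESCs, 1 per condition. Per the labels and the methods of the study, reads were processed with CASAVA 1.8.2, aligned to mm9 with Bowtie (version not given in the sources used here) and extended. The authors deposited coverage, a signal in ppm per 20 bp bin around each TSS. How it was normalized is not given in the sources used here, but its smallest steps gave 21339400 normalizing reads for Tip60 and 11586200 for Hdac6. The spans measured in the tables, 299 bp and 149 bp, differ between the libraries.

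Here each promoter mean (-500 to 500 bp) was divided by the library's mean at 1500 to 2000 bp on both sides, 0.5 was added, and log2 ratios were formed. Calls needed 2-fold and 2 times flank. Read numbers were obtained from the steps, and exact 95% intervals from them cover counting error only. With 1 library per condition no test was run. The scripts were tested on simulated data. Named genes, 1 row each with a symbol and outside the 1% of rows with the highest untagged value, were the 12 largest contrasts each way among calls above 1.5 times untagged whose interval excluded 1, the 8 highest in both within 0.5 of a contrast of 0, the study's ChIP examples with Kat5, Hdac6 and Ep400, and the extremes of each list. Of these, 1 gene is not reported here. The other genes were named after their values had been seen. Members and lists were chosen with earlier results of these data known. GC content and sequences came from mm9. Alternatives changed the window, pseudocount, flank, limits, row choice, untagged subtraction and GC scaling. Python 3.11.15, numpy 2.4.6, pandas 2.3.3, scipy 1.17.1 and matplotlib 3.10.9 were used.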

Additional observations from a re-analysis of the deposited data

How the results depend on the processing

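No paired analysis was possible because each condition has 1 library. All alternatives run kept the median contrast of all rows negative except GC-flank division (each value divided by the flank level of the same GC content), which gave 0.13. Other values were -0.29 for -250 to 250 bp, -0.13 for -1000 to 1000 bp, -0.26 and -0.17 with 0.25 and 1 added, -0.21 with each row's own flank, -0.30 with 1 row per gene, -0.28 in RefSeq rows, -0.083 after untagged subtraction and -0.27 with at least 10 reads.

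Rows toward Tip60 and toward Hdac6 numbered 605 and 5880 for -250 to 250 bp, 83 and 1283 for -1000 to 1000 bp, 119 and 1887 with 1 added, 139 and 2091 with 1 row per gene, 729 and 7327 at 1.5-fold, 32 and 548 at 3-fold and 102 and 1622 at 3 times flank. Centring on the median of all rows gave 453 and 1955 (18.8% toward Tip60, against 6.44%), centring within GC bins of 2.5 points 651 and 669 (49.3%), GC-flank division 1005 and 197 (83.6%) and no minimum level 1329 and 4214 (24.0%). Own flanks gave 156 toward Tip60. Rows high in both numbered 1246 for -1000 to 1000 bp, 270 with own flanks, 1636 with 1 row per gene, 214 after GC-flank division and 254 at 3 times flank.

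The contrast of the highest minus the lowest GC quintile, -1.03, was -1.18 and -0.77 for the narrower and wider windows, -1.23 and -0.81 with 0.25 and 1 added, -0.81 with own flanks and 0.18 after GC-flank division. With 1 row per gene the downstream to upstream ratios of Tip60 and Hdac6 were 1.51 and 1.48 in rows toward Tip60 and 0.814 and 1.43 in rows toward Hdac6, and that of Hdac6 was 1.59 in rows high in both. In RefSeq rows they were 1.504 and 1.45, then 0.814 and 1.401. At 1.5-fold they were 0.922 and 1.396 toward Hdac6, and Tip60 had 1.16 in rows high in both, where it had 1.17 without the 1% highest untagged rows.

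Medians of gene lists changed sign in 31 cases. Centring within GC bins gave -0.085 for olfactory receptors, -0.00395 for vomeronasal and taste receptors, 0.057 for Zfp genes, 0.011 for solute carriers, 0.22 for the respiratory chain, 0.038 for the proteasome, 0.30 for translation factors, 0.10 for RNA polymerase and Mediator, 0.12 for cyclins, 0.26 for chaperones, 0.042 for endoderm and 0.031 for neural genes. GC-flank division gave -0.075 for olfactory receptors, 0.19 for Zfp genes, 0.22 for solute carriers, 0.41 for the respiratory chain, 0.26 for the proteasome, 0.54 for translation factors, 0.28 for RNA polymerase and Mediator, 0.32 for cyclins, 0.46 for chaperones, 0.064 for forkhead genes, 0.10 for Wnt genes, 0.012 for Tip60-p400 subunits, 0.026 for histone deacetylases, 0.070 for Nodal, 0.25 for endoderm, 0.24 for neural and 0.13 for germline genes. Olfactory receptors had -0.024 with own flanks and the respiratory chain 0.044 for -1000 to 1000 bp. The causes were not tested. Depth limits single promoters: a flank-level window held 10.8 Tip60 and 6.99 Hdac6 reads.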
